A study of Mus musculus with 2 samples.

Results

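The small proline-rich protein genes are 10 genes of the mouse epidermis (Sprr1a, Sprr1b, Sprr2a, Sprr2b, Sprr2d, Sprr2e, Sprr2f, Sprr2h, Sprr2i and Sprr3), taken here as the array probes that carry 1 of these names. Probes were found for 9 of the 10 genes, 10 probes in all among 41167, with 2 for Sprr2a. Sprr2i had no probe under its own name, and its accession NM_011475 is listed only on the probe named for Sprr2e. Skin RNA of Pla2g2f-Tg/+ mice, which overexpress the secreted phospholipase A2 enzyme encoded by Pla2g2f, was compared with that of their littermate controls. All mice were 25 days old and on a C57BL/6 background, and the RNA of 4 mice was pooled for each genotype. The 2 arrays each carried a pool of each genotype, in different dyes. The transgenic pool was labelled with Cy5 and the control pool with Cy3 on array 1, and the dyes were exchanged on array 2. Which promoter drives the transgene is not given in the labels. Separate pools for the arrays are not mentioned there either, so both arrays count as 1 replicate. No p-value can be given, and the spread between the arrays is read as technical.

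Small proline-rich proteins are building blocks of the cornified envelope, the protein shell that replaces the membrane of a keratinocyte as it dies at the skin surface. Transglutaminases crosslink them through the glutamines and lysines at their ends to each other and to loricrin, while short proline-rich repeats form the middle of the molecule. Their genes sit side by side in the epidermal differentiation complex, between those of loricrin on one side and involucrin and the late cornified envelope proteins on the other. Several members are known to rise in wounded or inflamed epidermis.

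The probes of the Sprr2 members behaved unevenly. Higher in the transgenic pool, by at least 2-fold on each array, were Sprr2d, Sprr2h and Sprr2a by 1 of its 2 probes, whereas Sprr2e, Sprr2b, Sprr1a and Sprr2a by its other probe stayed within 2-fold. The 3 remaining members, Sprr2f, Sprr1b and Sprr3, were not well above background in either channel of array 1. No member probe (0) was lower by the 2-fold rule. Among all 10454 genes or transcripts measured, 3.72% were higher (389) and 1.68% lower (176) by that rule, a split of 159 and 449 when the arrays were centred on the spike-in control RNAs. In skin RNA, more cells of a type and more transcript per cell cannot be told apart. The 3 probes that passed it were well above background in the transgenic channel alone, so they entered the set of measured probes only through the pool in which they were high. Of all 760 probes on the array with that property, 23.9% passed the rule, against 2.57% of the 11468 probes well above background in both channels. The 4 member probes detected in both channels did not pass it.

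The probes are shown first, because what each one can bind differs between the members. Each is a designed 60-base oligonucleotide, with positions on mm8, the build of the array design. In the Sprr2b and Sprr2e probes the run CCTTGTCC, in capitals, occurs 2 times each.
Sprr2b, chr3:92402930-92402989: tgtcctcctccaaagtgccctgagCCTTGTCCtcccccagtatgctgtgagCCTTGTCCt
Sprr2e, chr3:92438328-92438387: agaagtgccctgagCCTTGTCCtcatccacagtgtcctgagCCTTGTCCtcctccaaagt
These were the only probes of the 41167 with more than 1 copy of that run, and 40 probes (0.0972%) held at least 1. The run was chosen after the probes had been read. Probes of the other members hold none. The last 30 of 60 bases are given for the 3 probes that passed the 2-fold rule and for the second Sprr2a probe.
Sprr2a probe 1, chr3:92304739-92304798: ccagtcatcaggaccaggggaagtgaaaga
Sprr2a probe 2, chr3:92307188-92307247: tagaagcacactttgtgaggaccaacagaa
Sprr2d, chr3:92426202-92426261: tgtgttgtcagcatggtttcatttcctgaa
Sprr2h, chr3:92472667-92472726: cctgaataaaaagaacaatcttgttgctcg
Counting also the probes of the relatives Sprr2g, Sprr2k, Sprr4 and Sprr2j-ps, 14 probes lie in the cluster, and 5 of them hold CCTTGTCC. A shared run of at least 8 bases is fixed by that choice, and the longest run shared by a pair of the 5 was 28 bases, between Sprr2b and Sprr2k. Sprr2b and Sprr2e shared 22 bases. None of the 5 probes with the run passed the 2-fold rule, and the 3 member probes that passed it lack the run. Sprr2a probe 2 and the Sprr1a probe also lack the run and did not pass. Differences between genes and between kinds of probe were not tested apart. Binding of other Sprr2 transcripts to the probes with the run was not tested.

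Sprr2d (NM_011470) had the highest computed ratio of the member probes, although the control channel gives only a bound for it, as for Sprr2h and Sprr2a probe 1, so their true folds cannot be ordered. On array 1 its processed signal, in scanner units after background subtraction and dye normalisation, was 4998 in the transgenic channel and 79.7 in the control channel. The control value was a surrogate, which the scanner program puts in place of a signal at background. Log2 ratios of transgenic over control were 5.97 for array 1 and 5.42 for array 2, averaging 5.70 or 51.8-fold. With the control set to 199, the lowest Cy3 signal well above background on that array, the bound for Sprr2d was 25.1-fold higher. Such bounds are not strict, since 3.85% of the dim Cy3 signals were higher than 199, up to 302. Before any normalisation the transgenic spot stood 292 units over its local background and the control spot 18.8 units.

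Sprr2h (NM_011474) had processed signals of 551 in the transgenic and 88.3 in the control channel, the latter again a surrogate. Its log2 ratios were 2.64 and 2.97, with a mean of 2.81 or 7.0-fold, and the array 1 bound, which is not strict, was 2.77-fold higher. The raw signals behind it were small, 33.7 units over local background in the transgenic channel and 18.7 in the control channel. Array 1 was also recomputed from these raw signals by normexp background correction and loess. With the usual offset of 50 units, larger than the raw signals of Sprr2h and so shrinking its ratio by construction, the array 1 ratio was 0.54 for Sprr2h, under the 2-fold rule, and 2.49 for Sprr2d. Without the offset these ratios were 2.04 and 4.97, both past the rule. For comparison, the probes of Sprr2f, Sprr1b and Sprr3 gave 2.48 to 5.07 raw units in the transgenic channel and 14.9 to 16.7 in the control channel. The medians over all probes dim in both channels were 4.07 and 16.7 units, so these 3 members lay at the general background of each dye. The raw Cy5 signal of Sprr2h was above that level, while its raw Cy3 signal was close to it.

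The 2 probes of Sprr2a (NM_011468, now Sprr2a1 in RefSeq) disagreed. Probe 1 gave processed signals of 1092 in the transgenic and 100.03 in the control channel, with the control again a surrogate. Its log2 ratios were 3.45 and 2.83, with a mean of 3.14 or 8.81-fold, and a bound of 5.49-fold on array 1. After normexp and loess its array 1 ratio was 0.998 with the offset of 50 units, just short of the rule, and 2.98 without it. Probe 2, which starts after a gap of 2390 bases, gave 50779.9 and 50646.5 units, and its log2 ratios were 0.0038 and 0.06. The direction of probe 2 turned below 0 when the arrays were centred on the median probe (-0.03) or on the spike-ins (-0.45), or with normexp without offset (-0.01), and it was not called under these settings. RefSeq lists 3 genes in place of Sprr2a (Sprr2a1, Sprr2a2 and Sprr2a3), and probe 2 also carries an accession of a predicted transcript, XM_986081. Which transcript gives the strong, equal signal was not tested. By the rule that the probe with the higher signal stands for a gene, Sprr2a has no call, and by the mean of its probes it has one, at 1.59.

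**Figure D1:**
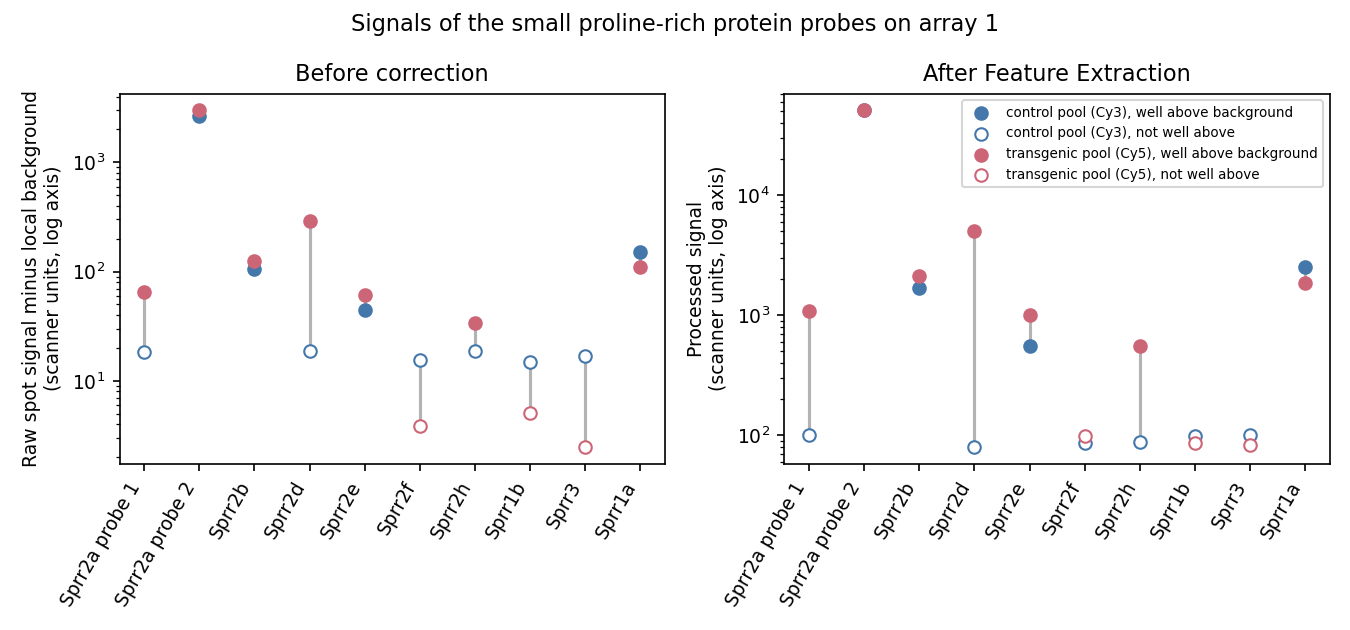
Signals of the 10 member probes on array 1 in scanner units on log axes, raw minus local background on the left and after Feature Extraction on the right. Blue points are the control pool and red points the transgenic pool, open points are signals not well above background, and levels of different probes cannot be compared. The control points of Sprr2a probe 1, Sprr2d and Sprr2h are open while their transgenic points are filled, and both points of Sprr2f, Sprr1b and Sprr3 are open.

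The probes of Sprr2e (NM_011471) and Sprr2b (NM_011469) that hold CCTTGTCC were well above background in both channels. Sprr2e had signals of 1000.1 in the transgenic and 552 in the control channel. Its log2 ratios were 0.86 and 0.90, a mean of 0.88 or 1.84-fold, which passed a 1.5-fold rule on each array but not the 2-fold one. Sprr2b had signals of 2099 and 1670 with log2 ratios of 0.33 and 0.34, a mean 1.26-fold ratio. The arrays differed by 0.04 for Sprr2e and by 0.01 for Sprr2b, both less than the median difference of 0.23 over all genes measured. Centred on the spike-ins the means were 0.40 for Sprr2e and -0.14 for Sprr2b, so the direction of Sprr2b depends on the scale.

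Sprr1a (NM_009264), a member that injured epithelia and axotomised neurons are known to induce, was the only measured member below 0 on both arrays. Its processed signals were 1858 in the transgenic and 2523 in the control channel, both well above background. The log2 ratios were -0.44 and -0.29, a mean of -0.37, or 1.29-fold lower in the transgenic pool, and did not pass the rule. The value stayed below 0 under each setting tried, at -0.85 when centred on the spike-ins. Raw signals had the same order, 111 units in the transgenic and 151 in the control channel.

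For Sprr2f (NM_011472), Sprr1b (NM_009265) and Sprr3 (NM_011478) both channels of array 1 held surrogates. The deposited log ratio of the scanner program is listed at 0 for all 3, whereas the deposited value table gives the ratio of the surrogates. Those are ratios of surrogates and not of measured signals. In log2 they were 0.20 on array 1 and 0.38 on array 2 for Sprr2f, -0.21 and -0.10 for Sprr1b, and -0.27 and 0.27 for Sprr3. Sprr3 is best known from the oesophagus and other lining epithelia. A difference in these 3 genes was not detectable at this signal.

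Ordered along chromosome 3 by the coordinates of the array, the member probes ran from Sprr2a through Sprr2b, Sprr2d, Sprr2e, Sprr2f, Sprr2h, Sprr1b and Sprr3 to Sprr1a, over 265 kb from 92304739 to 92569495. The 9 genes with a probe have the same order in the GRCm38.p6 gene table. The Sprr2 genes lie on the plus strand and Sprr1b, Sprr3 and Sprr1a on the minus strand. The 3 genes with a probe at or over 2-fold were not next to each other. Between Sprr2d at 5.70 and Sprr2h at 2.81 lie Sprr2e at 0.88 and the undetected Sprr2f, and between Sprr2a and Sprr2d lies Sprr2b at 0.34. The Sprr2d and Sprr2h ratios rest on surrogates in the control channel of array 1. The Sprr2e and Sprr2b probes hold CCTTGTCC, so whether the genes in between were unchanged was not tested. Relatives in the same stretch, named after their values were seen, were also measured: Sprr2g had log2 ratios of 0.71 and 0.21, Sprr2k of 0.43 and -0.08, and the probe that lists the Sprr2j-ps accession NR_003185 of 1.12 and 0.52. All 3 of these probes hold CCTTGTCC 1 time. Sprr4, beyond Sprr1a, was not well above background in either channel, and its ratios of 1.03 and 1.44 rest on a surrogate in the control channel of array 1.

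**Figure D2:**
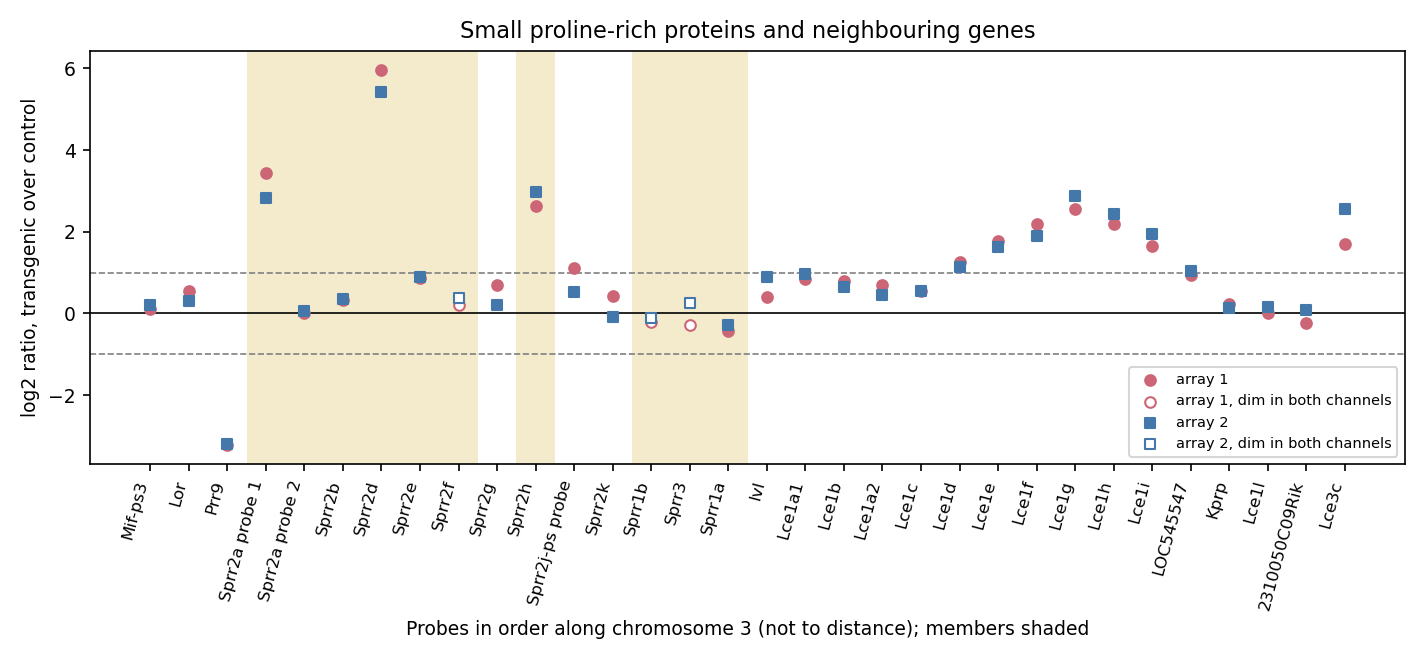
Log2 ratios of transgenic over control on array 1 (red circles) and array 2 (blue squares) for the member probes (shaded) and the measured neighbouring genes within 0.5 Mb, in chromosomal order and not to distance. Dashed lines mark 2-fold, and open symbols are dim in both channels of array 1. Sprr2a probe 1, Sprr2d and Sprr2h lie over the upper line on both arrays, Sprr1a lies below 0 on both, and a run of Lce1 genes from Lce1d to Lce1i also lies over the line.

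Beside the members, 22 neighbouring genes within 0.5 Mb were measured: 7 passed the rule upwards, 1 downwards and 14 not at all. Over all genes measured, 3.72% passed upwards and 1.68% downwards. Of the 22 neighbours, 14 are also on the envelope list below, among them all 7 that were higher. These are counted in both lists, so the 2 counts are not separate. Prr9, a proline-rich gene next to the Sprr2 end of the cluster, was lower, with log2 ratios of -3.23 and -3.20. Lce1g and Lce1h, late cornified envelope genes on the far side of Sprr1a, were higher with mean ratios of 6.54-fold and 4.94-fold and were detected in both channels. Lce3c had a mean of 2.13 but was dim in the control channel.

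Other genes of the cornified envelope were taken from a list of 36 structural proteins and crosslinking enzymes. Among the 27 measured, 10 passed the rule upwards, none (0) downwards and 17 in neither direction. Of all genes measured, 3.72% were higher and 1.68% lower. Lce1m, detected in both channels, was the lowest of the list at -1.22 and -0.91, past 2-fold lower on array 1 only. Of the 24 envelope genes detected in both channels, 7 passed, all upwards. The median log2 ratio of the 27 was 0.72 beside -0.0079 for all genes measured. The 6 measured Sprr members, 2 of them higher when the brightest probe stands for each gene, had a median of 0.61, which was 0.18 over the 4 detected in both channels and 0.13 when centred on the spike-ins, where the envelope median was 0.67 and 0.24. Both medians of 0.72 and 0.61 include genes that passed the filter through the transgenic channel alone. Lce3f had log2 ratios of 3.10 and 3.08 and an array 1 bound of 4.04-fold. Rptn, a fused S100-type envelope protein, had log2 ratios of 1.73 and 2.57 but a bound of only 1.59-fold on array 1, where the control was dim. Partners of the Sprr proteins, named after their values were seen, stayed within 2-fold: loricrin (Lor) at 0.56 and 0.31, involucrin (Ivl) at 0.40 and 0.88, and the crosslinking enzyme Tgm1 at -0.41 and -0.26. With normexp, the offset of 50 units and loess on array 1, 6 envelope genes passed, and 9 without the offset.

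The promoters are shown because the probes of Sprr2d and Sprr2e differed in ratio although the upstream sequences of these genes are nearly the same. Whether the Sprr2e probe, which is also listed for Sprr2i, reports Sprr2e alone was not tested. RefSeq sequences of assembly GRCm38.p6 were found for all 10 members, 12 promoters in all with the 3 copies of Sprr2a, and the 250 bases before the annotated transcript start are printed in the direction of transcription. Capitals mark TGANTCA, the letters of the AP-1 site, which binds dimers of Fos and Jun proteins.
Sprr2d, chr3:92338890-92339139, plus strand: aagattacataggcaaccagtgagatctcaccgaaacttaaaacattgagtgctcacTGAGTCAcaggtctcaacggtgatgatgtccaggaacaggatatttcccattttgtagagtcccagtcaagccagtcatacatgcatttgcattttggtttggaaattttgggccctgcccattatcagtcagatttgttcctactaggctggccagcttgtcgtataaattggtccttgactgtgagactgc
Sprr2e, chr3:92351893-92352142, plus strand: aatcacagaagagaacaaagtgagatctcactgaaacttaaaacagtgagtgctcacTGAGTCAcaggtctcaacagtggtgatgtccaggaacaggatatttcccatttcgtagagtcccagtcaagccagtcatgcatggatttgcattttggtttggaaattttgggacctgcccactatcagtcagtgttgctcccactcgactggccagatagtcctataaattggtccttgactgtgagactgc
Sprr2h, chr3:92385435-92385684, plus strand: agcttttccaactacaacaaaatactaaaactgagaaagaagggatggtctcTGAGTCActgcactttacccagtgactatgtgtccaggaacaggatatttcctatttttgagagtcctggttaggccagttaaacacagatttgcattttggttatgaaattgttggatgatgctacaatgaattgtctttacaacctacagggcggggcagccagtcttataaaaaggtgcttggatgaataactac
Sprr1a, chr3:92485882-92486131, minus strand: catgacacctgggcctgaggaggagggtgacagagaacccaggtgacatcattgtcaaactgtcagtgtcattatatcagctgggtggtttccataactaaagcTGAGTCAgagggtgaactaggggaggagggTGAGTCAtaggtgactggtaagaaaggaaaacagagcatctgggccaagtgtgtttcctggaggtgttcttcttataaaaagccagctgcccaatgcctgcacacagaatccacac
In a global alignment the Sprr2d and Sprr2e stretches were identical at 225 of 250 bases (90.0%), with an unbroken shared run of 30 bases. Sprr2d and Sprr2h were identical at 69.2% and Sprr2d and Sprr1a at 56.4%. Pairs with only short shared runs also reached such values: Sprr2a1 and Sprr1b were identical at 61.2%, with a longest run of 9 bases. The Sprr2a1 and Sprr2a2 stretches were identical at all 250 bases, and Sprr2a3 shared an unbroken run of 222 bases with Sprr2a1. The 3 copies are therefore not separate observations.

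The motifs were searched on both strands: TGANTCA for AP-1, TATAAA for the TATA box, CAGGAA for ETS factors, ATGCAAAT for the octamer bound by POU factors, and, for the interferon response element, GAAA, any 2 bases and GAAA again. No match overlapped one of another motif in the member promoters. All 6 promoters from Sprr2b to Sprr2i held 1 AP-1 match, 193 to 198 bases before the start, 1 octamer match at 108 to 112 bases and 1 TATA box match at 29 bases. Of 32841 mouse promoter stretches of the same length, 6.75% held TGANTCA, 1.60% the octamer and 12.4% the TATA box. The 6 promoters resemble each other, from 66.8% identity for Sprr2f and Sprr2h to 90.0% for Sprr2d and Sprr2e. They are therefore not separate observations beside these shares. CAGGAA was found in 5 of those 6, all except Sprr2b, and in 25.7% of all stretches. Sprr1a held 2 AP-1 matches, at 146 and 116 bases, and 0.338% of all stretches held more than 1. Sprr1b held 1, at 111 bases, and Sprr3 and the 3 Sprr2a copies held no TGANTCA in this window. The window follows the annotated start, which put the CAGGAA match at 121 bases in Sprr2a1 and at 93 in Sprr2a3. No member promoter (0 of 12) held the interferon response element, which 2.98% of all stretches did. Sprr2d and Sprr2h, which passed the rule, and Sprr2e, which did not, held matches of the same 4 motifs. The Sprr2e probe is also listed for Sprr2i and holds CCTTGTCC, so its ratio may not be that of Sprr2e alone. A match is a description of the letters and not a binding site.

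**Figure D3:**
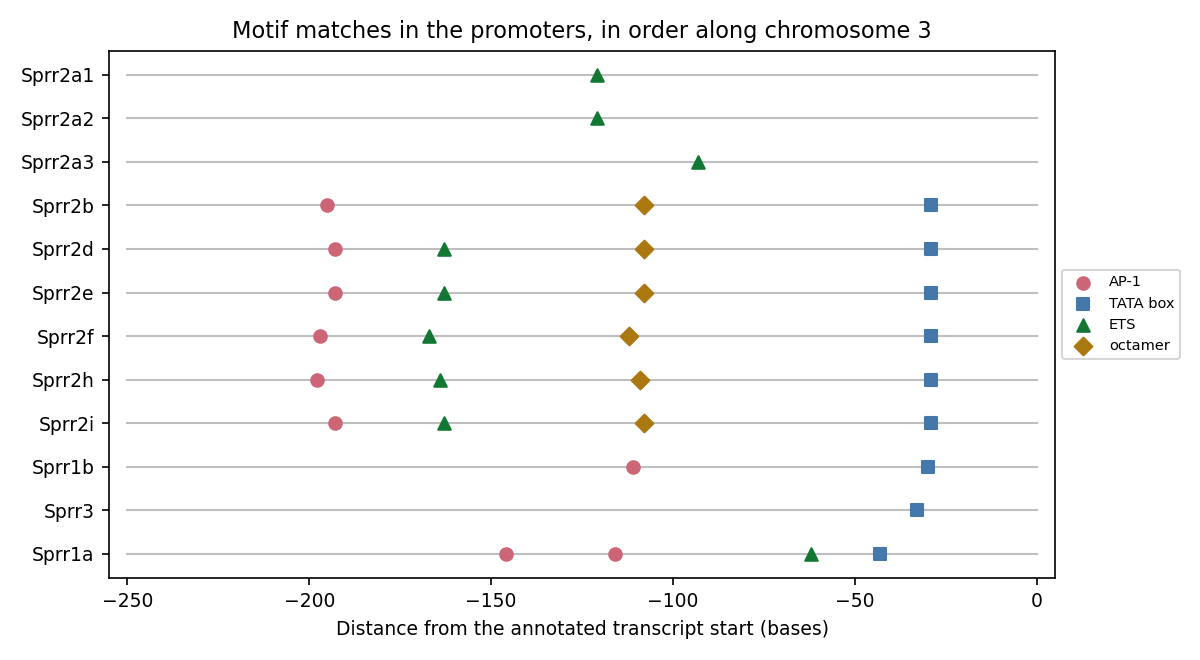
Positions of motif matches in the 250 bases before the annotated start of each member promoter, in chromosomal order, with the distance from the start on the horizontal axis. Sprr2b to Sprr2i share the positions of the AP-1, octamer and TATA box matches, Sprr1a has 2 AP-1 matches nearer to its start, and the Sprr2a copies have an ETS match alone.

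Regulators known to act on Sprr or other differentiation genes were taken from a list of 29. The 22 measured ones included 1 past the rule upwards, 1 downwards and 20 in neither direction, with a median of 0.02. Among all genes measured the shares were 3.72% higher and 1.68% lower. Of 7 AP-1 subunits listed, 5 were measured. Fos had log2 ratios of 2.18 and 1.20, with a dim control channel on array 1. Jun lay at -0.03 and 0.08, Junb at 0.37 and -0.16, Jund at 0.21 and 0.54 and Fosl2 at -0.22 and -0.30, so these 4, also named after their values were seen, stayed within 2-fold. Elf5, an ETS factor, was lower at -1.54 and -1.47, with a dim transgenic channel and a bound of 1.80-fold lower on array 1. Cebpa lay at 0.32 and 1.44 and Notch1 at -0.89 and -0.83, neither past the rule.

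The tissue carried its own markers: 8 of 8 basal and 9 of 10 suprabasal keratinocyte markers were measured. The basal list had 1 higher gene and a median of 0.16, and the suprabasal list had 3 higher genes and a median of 0.70, with Krt10 at 0.99 and 0.98. Markers of activated epidermis were higher in 3 of 6, with S100a9 at 124-fold and Krt17 within 2-fold at 0.01 and 0.14, and their summed array 1 signal was 99574 in the transgenic and 43760.4 in the control channel, of which S100a9 gave 41886 and 301 and Krt17 gave 41510.0 and 41281. All 7 measured hair shaft and all 7 inner root sheath markers were lower, with medians of -3.64 and -2.27, and the 5 sebaceous and 5 adipocyte markers were all higher, with medians of 2.08 and 1.43. Macrophage markers were higher in 2 of 5, and skeletal muscle markers in 2 of 6. Beside these marker counts, 3.72% of all genes measured were higher and 1.68% lower. The lists that changed did so on the same 2 arrays as Sprr2d and Sprr2h, and their part in the Sprr values was not tested. Pla2g2f itself, the check of the labels, had log2 ratios of 0.54 and 0.34, under the rule. Its mean of 0.44 became -0.04 when centred on the spike-ins, so its direction depends on the scale. The check was therefore not decisive, and genotype and direction rest on the labels.

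**Figure D4:**
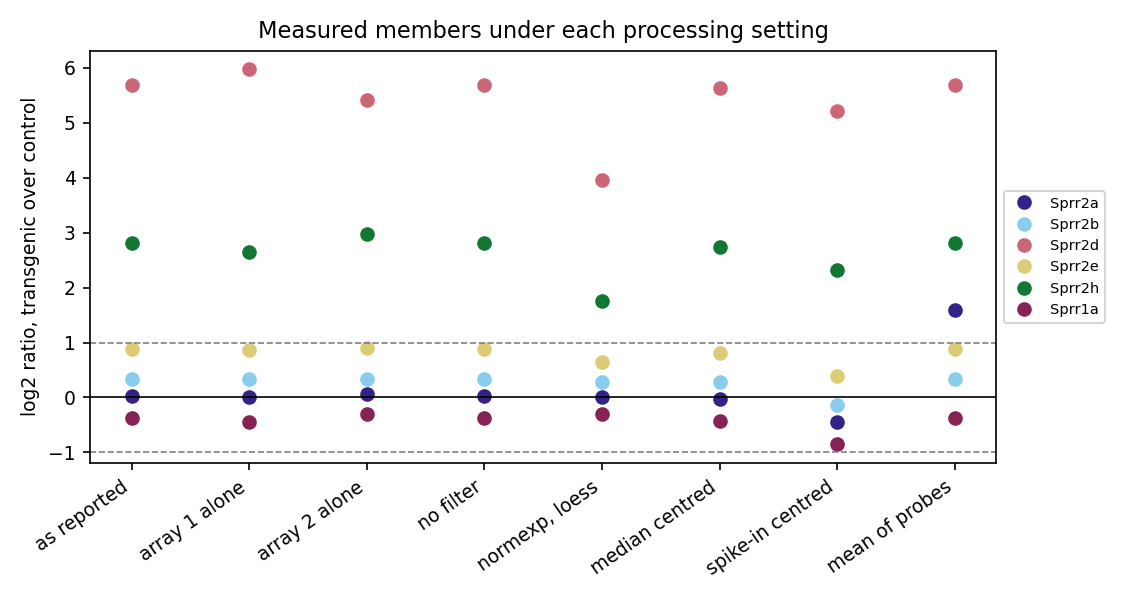
Log2 ratio of transgenic over control for the 6 measured members under the processing settings drawn, with dashed lines at 2-fold. Points are means of the 2 arrays, except at array 1 alone and array 2 alone. At normexp and loess only array 1 was recomputed. The limit to probes well above background in both channels, under which Sprr2d and Sprr2h drop out, is not drawn. Sprr2d stays over the upper line in every setting drawn, Sprr2h lies over it in the mean at each setting drawn though at normexp and loess, with an offset of 50 units, its array 1 value alone is below it, and Sprr2a is above it as the mean of its probes alone among the settings drawn.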

How the data were processed

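Total RNA (500 ng per labelling) was hybridised to 2 two-colour Agilent arrays, per the labels' protocols. The scanner file of array 1 gives intensity values that Agilent Feature Extraction 9.5.1.1 background-subtracted, dye-normalised and, where dim, replaced by surrogates, per the file headers. The deposited value table holds log10 Cy5 over Cy3. For array 1 it equals the log10 ratio of the deposited processed intensity values within 5.0e-10 at all 43790 features. For array 2, whose signals were not used here, scale and direction were taken from the dyes in the labels. The columns correlated at -0.579 before array 2 was turned. Later steps are not stated in the headers or labels.

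Values were converted to log2 transgenic over control and averaged over the arrays. Control spots and 29 outlier spots were left out. A probe counted as measured when either channel of array 1 was well above background, and the brightest stood for a gene. A call needs 2-fold the same way on each array. A bound divides the bright signal by the higher of the dim one and the lowest signal well above background in that channel, 199 (Cy3) or 190.04 (Cy5). It is not strict, since 3.85% of the dim Cy3 signals were higher than 199, up to 302. It rests on array 1 alone and is open to dye bias. The number of arrays limits the precision, and no slide or scan batch could be tested. Names came from the RefSeq table of GRCm38.p6 (24370 probes by accession, 6300 by symbol, 2425 by synonym, and 8072 kept under the array's name). Promoters were aligned with Biopython 1.88. Python 3.11.15 and limma 3.58.1 were used.

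The naming rule takes all members, Pla2g2f, the 4 envelope partners, 4 regulators and 4 neighbours with the largest absolute mean, the 2 brightest genes of each marker list (of which few are printed), and the 3 genes nearest in ratio to the brightest Sprr1 and Sprr2 member. Lor, Ivl, Tgm1, Lce1m, the other AP-1 subunits and the Sprr relatives were added after values were seen. Alternatives were single arrays, dim-probe filters, normexp (offset 50 units, or 0) with loess, other centrings, other folds and the mean of probes. The members and lists were chosen with earlier results of these data known.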

Additional observations from a re-analysis of the deposited data

How the results depend on the processing

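The 2 Sprr members called, Sprr2d and Sprr2h by the brightest probe, were called on array 1 and array 2 alone, without the dim filter, with either centring and at 4-fold. Limiting probes to those well above background in both channels left 0 called among 4 members and a median of 0.18, because both genes then drop out. The same limit left 7 of 24 envelope genes called, all higher. Among 20 neighbours it left 6 higher and 1 lower. With normexp, an offset of 50 units and loess on array 1, 1 member (Sprr2d) was called, with a median of 0.46, and 6 envelope genes were called, with a median of 0.60; without the offset 2 members (Sprr2d and Sprr2h), with a median of 0.58, and 9 envelope genes were called, so the offset, which shrinks dim ratios, removed the Sprr2h call. The mean of all probes gave 3 members and a median of 1.23, through Sprr2a. The Sprr median was 0.29 without the dim filter, 0.55 centred on the median probe and 0.13 centred on the spike-ins. The envelope median was 0.66 and 0.24 under these centrings, and 0.73 to 0.80 on single arrays. Centring on the spike-ins put the median of all genes at -0.49. A rule of 1.5-fold called 16 envelope genes, and 4-fold called 3 and 3 neighbours. Leaving out the probes with CCTTGTCC left 2 of 4 members called and a median of 1.42, and taking Sprr2a by probe 1 gave 3 of 6 and 1.84. These 2 settings and the one without offset were chosen after the data had been seen, and all 3 called probes were detected in the transgenic channel alone. Over all 10454 genes, the rule as reported called 389 higher (3.72%) and 176 lower. Normexp and loess called 107 (1.02%) and 56, or 331 (3.17%) and 149 without the offset. Of the 9188 genes left by the limit to both channels, 243 (2.64%) were higher and 86 lower. Without the dim filter, 426 of 27594 (1.54%) were higher and 191 lower. At 1.5-fold the counts were 864 (8.26%) and 397, at 4-fold 67 (0.641%) and 65, and on array 1 alone 568 (5.43%) and 274. Where no construction is named, the cause was not tested. Each ratio already compares the 2 genotypes on 1 array, and no test across mice was possible with 1 replicate. Dim signal limits Sprr2f, Sprr1b and Sprr3, and the control channel of Sprr2d and Sprr2h.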

Other observations

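The genes whose pair of ratios on the 2 arrays lay nearest to Sprr1a were Pdcd2l (-0.45 and -0.29), Eif3h (-0.44 and -0.30) and Uaca (-0.45 and -0.30). Those nearest to Sprr2a by its bright probe were Ciao1 (0.01 and 0.07), Ap3b1 (0.01 and 0.06) and Gng10 (-0.0025 and 0.07). With 2 arrays of the same pools, such nearness describes the size of a ratio only.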
